A study of Mus musculus with 14 samples.

Results

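Cultures of corneal fibroblasts were compared with cultures of corneal keratocytes, both grown from the stroma of the adult mouse cornea, to describe what changes with the serum in which these cells are kept. The comparison holds the 3 arrays labelled Corneal Fibroblast and the 3 labelled Corneal Keratocyte, 6 of the 14 arrays of the series. A probe set, the group of probes that reports 1 transcript, entered the test with a group mean of 50 or above in fibroblast or keratocyte culture, as 9649 of 12422 probe sets did once array controls were set aside. The tested probe sets that have 1 gene symbol stood for 7041 genes, each represented by its brightest probe set, the one with the highest mean log2 signal over the 6 arrays. At the signal limit, Fkbpl (means 50.1 and 35.1 in fibroblast and keratocyte culture) and Pole4 (30.3 and 50.1) were just inside, and Tyro3 (49.9 and 48.0) and Entpd6 (49.9 and 43.8) just outside.

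Both groups were primary cultures of stromal cells from CD-1 mice, an outbred stock, at 7 to 8 weeks of age. Fibroblast cultures had DMEM, a standard medium, with fetal bovine serum at 10%, and keratocyte cultures had the same medium with platelet-poor horse serum at 1%. Animal source, platelet content and amount of serum therefore changed together and cannot be told apart. RNA was taken with TRIzol, and 5 µg was hybridised to 1 array per sample. The labels do not say whether the 3 replicates were separate cultures or animals, so p-values measure only the spread between these samples. Days in culture, passage and cell density are not given in the sources used here. The other 8 arrays were 3 of myofibroblast culture (the same fetal bovine serum with TGF-beta1 at 10 ng/ml), 3 of adult stroma and 2 of stroma at postnatal day 10. They entered the estimate of spread, and the myofibroblast values are given beside a few genes.

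Keratocytes are the resident cells of the corneal stroma. In the healthy eye they rarely divide, and they make collagen, the small proteoglycans that space collagen fibrils, and soluble enzymes such as Aldh3a1 and transketolase that are abundant in transparent cells. Serum rich in growth factors drives them in culture into dividing fibroblasts, and TGF-beta drives fibroblasts into contractile myofibroblasts that hold smooth muscle actin.

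The arrays did not separate cleanly by their labels. Over the tested probe sets, fibroblast replicate 1 correlated more with keratocyte replicates 1, 2 and 3 (0.951, 0.945 and 0.954, Pearson correlation of log2 signals across probe sets) than with fibroblast replicates 2 and 3 (0.932 and 0.922). Each array was also placed on a line where 0 is the mean of keratocyte replicates 1 and 3 and 1 is the mean of fibroblast replicates 1 and 2. Fibroblast replicate 3 lay at 0.705, and fibroblast replicates 1 and 2, whose mean is 1 by construction, at 0.676 and 1.32. Neither fibroblast replicate 3 nor keratocyte replicate 2 set the line, so their positions are not like for like with those of the arrays that did. Keratocyte replicate 2 lay at 0.586, with keratocyte replicates 1 and 3, whose mean is 0 by construction, at -0.0581 and 0.0581. By correlation it stayed with its own group, at 0.949 and 0.964 with keratocyte replicates 1 and 3 against 0.945, 0.943 and 0.882 with fibroblast replicates 1, 2 and 3. The groups did not separate on the measures of array quality that were tested. The 3'/5' ratio of Gapdh probe sets, a gauge of broken RNA, was 0.816 ± 0.0369 in fibroblast and 0.847 ± 0.00459 in keratocyte culture (SD, n = 3 arrays each; exact permutation p = 0.4, where 0.1 is the smallest that 3 against 3 allows). The median signal of an array was 118 ± 9.47 in fibroblast and 128 ± 9.42 in keratocyte culture (exact permutation p = 0.3). Control transcripts that were not added gave signals with a 95th percentile of 126.3 over the 6 arrays. Signals up to that value are within background, and no log2 difference is given for a gene with a group mean there, except in the medians of lists.

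Most genes that passed the test were lower in fibroblast culture, and they are said to fall, while those higher there are said to rise. Of the 9649 probe sets 143 passed the threshold (1.48%), of which 20 were higher (0.207%) and 123 lower (1.27%) in fibroblast culture than in keratocyte culture. At the level of genes, 11 of 7041 rose (0.156%) and 90 fell (1.28%). The test was limma on log2(signal + 16) with Benjamini-Hochberg adjustment, all differences are fibroblast minus keratocyte on that scale, and a call is an adjusted p below 0.05. The median difference over all genes was -0.10. After quantile normalization it was 0.01 over all probe sets and the split was 37 higher and 107 lower, and after centring of each array it was 0.01 with 37 higher and 101 lower. In all 143 called probe sets the 3 arrays of one group lay above the 3 of the other.

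**Figure D1:**
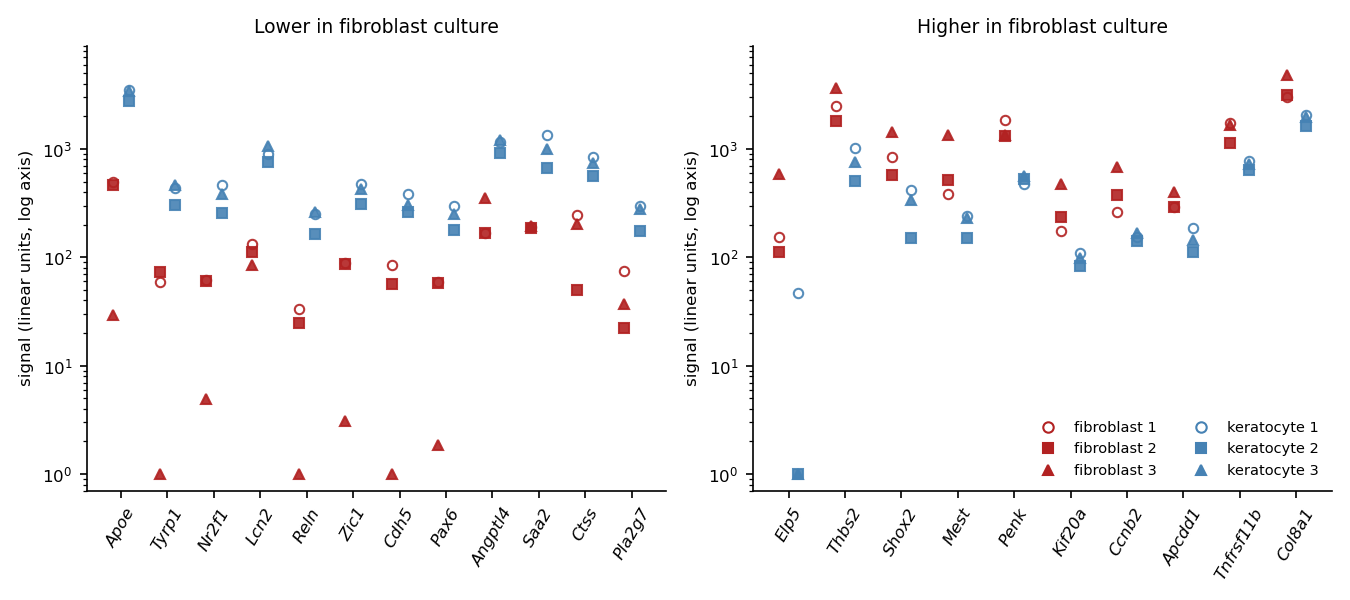
Signal (log axis) of the 12 genes with the largest falls and the 10 with the largest rises in fibroblast culture, 1 point per array, red for fibroblast and blue for keratocyte culture, with shapes for the replicates. Fibroblast replicate 3 (red triangles) was at or near the floor of 1 for Tyrp1, Reln, Cdh5, Pax6, Zic1 and Nr2f1, and was the highest array for Thbs2, Shox2, Mest, Kif20a and Ccnb2.

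The secreted proteins of the acute phase, the early response of tissues to injury, made up the clearest fall. Values of 3 arrays are given in the order of replicates 1, 2 and 3. Saa3, a serum amyloid A made at sites of inflammation, was at 1484, 1733 and 1277 in fibroblast and 5266, 5053 and 5297 in keratocyte culture. Saa2, a second serum amyloid A, was at 191, 185 and 195 against 1333, 671 and 992. Lcn2, the lipocalin that binds bacterial iron carriers, was at 131, 112 and 84.5 against 894, 753 and 1067. In all 3 genes the fibroblast arrays lay close together and far under the lowest keratocyte array. The differences were -1.80 (SE 0.28, adjusted p = 0.00685) for Saa3 and -2.25 (SE 0.35, adjusted p = 0.00704) for Saa2, and the adjusted p of Lcn2 was 0.00189. Both Saa3 and Saa2 kept their call without fibroblast replicate 3 (adjusted p = 0.0265 and 0.0246) and with only the 6 arrays in the fit (0.00613 and 0.0228). Saa3 lost it without both fibroblast replicate 3 and keratocyte replicate 2 (0.0544). Saa2 lost it without keratocyte replicate 1 (0.0543), without keratocyte replicate 3 (0.0564) and with 1 in place of 16 as the added constant (0.343). Cp, the copper carrier ceruloplasmin, fell too (adjusted p = 0.0296), from 284, 236 and 313 in keratocyte to 167, 108 and 84.8 in fibroblast culture. C1qc, a chain of the first complement component, was at 172, 151 and 158 in fibroblast and 351, 373 and 340.5 in keratocyte culture (difference -1.07, SE 0.14, adjusted p = 0.00189), with little spread within either group. C1qa, another chain, was at 144, 96.0 and 127 against 326, 328 and 298 (adjusted p = 0.00373). Of 21 complement and acute phase genes tested, 6 fell and none rose, and in 12 all fibroblast arrays lay below all keratocyte arrays. Over all genes the shares were 1.28% that fell and 10.4% with all fibroblast arrays below. The median difference of the list was -0.71. Serpina3n, an acute phase protease inhibitor, was at 881, 1819 and 138 against 2903, 3670.2 and 3531, with groups apart but fibroblast arrays far from each other, and did not pass (adjusted p = 0.51). The probe sets did not always agree: a dimmer one for Saa2 (means 110 and 148) and one for Lcn2 (51.9 and 70.7) did not pass.

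Markers of macrophages, which also make complement chains, were lower beside the complement genes. Of 31 macrophage and leukocyte genes 7 fell and none rose, C1qa and C1qc among them, with a median difference of -0.39 and 14 genes whose fibroblast arrays all lay below the keratocyte arrays, next to 1.28% and 10.4% of all genes. Cd68, a lysosomal protein of macrophages, was at 194, 107 and 227 in fibroblast and 393, 351 and 423 in keratocyte culture (difference -1.13, SE 0.21, adjusted p = 0.018). Ctss, the cathepsin that trims antigen carriers, was at 248, 50.2 and 203 against 837, 564 and 742 (difference -2.20, adjusted p = 0.0312). Fibroblast replicate 2 was lowest in both genes, and replicates 1 and 3 lay together above it. Ctss lost its call without fibroblast replicate 3 (0.0557), without keratocyte replicate 2 (0.057) and with only the 6 arrays in the fit (0.135). Cd68 kept its call without fibroblast replicate 3 (0.0138) and without keratocyte replicate 2 (0.0379), but not with only the 6 arrays (0.152). Of the 7 calls of the list, 5, 5 and 2 held in these settings. Mrc1, the mannose receptor, and Tyrobp, an adaptor of immune receptors, were within background in fibroblast culture at 32.5, 16.3 and 47.7 and 79.3, 39.1 and 76.7, against 129.8, 93.8 and 129 and 261, 163 and 174 in keratocyte culture (adjusted p = 0.0171 and 0.016). Mpeg1, a pore protein of phagocytes, fell from 341, 281 and 331 to 203, 149.6 and 159.7 (adjusted p = 0.0384). Other markers of the same cells showed no such gap. Csf1r, the receptor for their growth factor, was at 221, 253 and 178 against 239, 187 and 210.03 (adjusted p = 0.978), and Ptprc, carried by all leukocytes, at 159, 205 and 165 against 187, 177 and 117 (adjusted p = 0.884). The summed signal of 9 defining markers of macrophages ran from 1006 to 1815 over the fibroblast arrays and from 2249 to 2927 over the keratocyte arrays. Adgre1 and C1qb, 2 of the 9, were within background in both. As 3 of the 9 were called lower, the sum repeats called values in part. In RNA from whole cultures, fewer cells of a type and less RNA per cell cannot be told apart, here or in what follows, and the part of other cells in the fall of acute phase genes was not tested.

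Several genes of pigment cells were lower in fibroblast culture, some of them within background in both cultures. Dct, an enzyme of melanin synthesis, was at 359, 388 and 239 in fibroblast and 1238, 1094 and 1267 in keratocyte culture (difference -1.84, SE 0.25, adjusted p = 0.00225). Tyrp1, a second enzyme of that pathway, was at 58.6, 72.5 and 1 against 437, 303 and 462 (adjusted p = 0.0274), and Pmel, which builds the fibrils on which melanin is laid, at 126, 125 and 125 against 402, 400.1 and 436 (adjusted p = 0.0352). In Pmel the arrays of each group were nearly equal, whereas in Tyrp1 fibroblast replicate 3 alone was at the floor of 1. The call of Pmel was lost without fibroblast replicate 3 (adjusted p = 0.105) and without keratocyte replicate 2 (0.0932), while its adjusted p with only the 6 arrays in the fit was 0.00613. That of Tyrp1 was lost in each of these settings (adjusted p = 0.0903, 0.0529 and 0.0931). Tyr, the first enzyme of melanin synthesis, passed as well (adjusted p = 0.0243) but lay within background throughout, at 18.8, 19.9 and 10.3 and 63.9, 64.8 and 56.5. Kit and Ednrb, receptors that pigment cells need, fell from 119, 95.5 and 142 to 29.4, 40.8 and 26.1 and from 154, 84.0 and 123 to 28.1, 40.7 and 22.3 (adjusted p = 0.00189 and 0.029), with both group means within background. Both came from other lists and are not pigment cell genes only. Kit alone passed of 19 lymphocyte and mast cell genes, whose median difference was 0.03. Ednrb was 1 of 3 that fell of 40 growth factor and receptor genes. Of 14 melanocyte, Schwann and neural genes 4 fell and none rose, next to 1.28% of all genes that fell. Sox10, a factor of pigment and glial cells, was at 168, 440.4 and 616 against 224, 799 and 397, with overlapping arrays, and Mbp, of myelin, was within background in both groups. Erbb3, a receptor of Schwann cells outside the list and chosen after its values were seen, did not pass at its brightest probe set (adjusted p = 0.975). A dimmer probe set for it passed within background, with means of 19.1 and 89.3 (adjusted p = 0.00189). The summed signal of 4 defining markers of melanocytes and nerve ran from 236 to 287 in fibroblast and from 851 to 1040.2 in keratocyte culture, without overlap. This sum repeats the called values of Tyr, Tyrp1 and Pmel, with Mbp as the other marker.

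Single genes of other tissues fell in the same way. Pax6, the transcription factor of the eye field and of corneal epithelium, was at 59.2, 57.6 and 1.86 against 299, 178 and 249 (adjusted p = 0.0171). Perp, a protein of epithelial junctions, was at 75.8, 65.9 and 5.59 against 177, 152 and 231 (adjusted p = 0.0314), and Cdh5, the cadherin of endothelial junctions, at 85.5, 56.7 and 1 against 386, 262 and 304 (adjusted p = 0.0162). All 3 were low on every fibroblast array and near the floor on fibroblast replicate 3. The defining epithelial keratin Krt12 was at 245, 231 and 287 against 253, 233 and 227 (adjusted p = 0.901). Of 16 epithelial genes 2 fell and none rose, next to 1.28% of all genes that fell. The summed signal of the 2 tested epithelial markers of 8, Krt12 and Pax6, ran from 288 to 304 in fibroblast and from 411 to 552 in keratocyte culture. As Krt12 overlapped, the gap of this sum repeats that of Pax6. Of 16 endothelial and pericyte genes Cdh5 alone passed at its brightest probe set, next to 1.28% of all genes that fell. Emcn and Sox18, also of endothelial cells, did not pass there (adjusted p = 0.131 and 0.605) but did at dimmer probe sets. These were 2 for Emcn (means 70.4 and 237 for the one, 35.2 and 115 for the other, adjusted p = 0.0236 and 0.0433) and 1 for Sox18 (means 26.4 and 109, adjusted p = 0.0274). Cd93, a receptor of endothelial and myeloid cells outside the list and chosen after its values were seen, was at 171, 158 and 94.0 against 365, 304 and 379.9 (difference -1.25, adjusted p = 0.018). Pecam1, of endothelial cells, was at 76.2, 109 and 41.5 against 136, 105 and 118, with overlapping arrays. The summed signal of Cdh5, Pecam1 and Kdr, the tested endothelial markers, ran from 89.5 to 218 in fibroblast and from 422 to 581 in keratocyte culture. Pecam1 and Kdr were within background in both, so the gap of this sum mostly repeats that of Cdh5. Markers of lens and lymphocytes that were tested (Cryaa, Cd3e and Cd79a) were within background in both groups.

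Cholesterol synthesis genes were lower in fibroblast culture. Idi1, which makes one of the isoprene units of sterols, was at 116, 153 and 143 in fibroblast and 394, 316 and 383 in keratocyte culture (difference -1.31, SE 0.25, adjusted p = 0.0209). Msmo1, a sterol oxidase, was at 236, 263 and 308 against 695, 583 and 759 (difference -1.29, SE 0.26, adjusted p = 0.027). Sqle, the squalene epoxidase, was at 196, 201 and 308 against 539.99, 504 and 626 (difference -1.21, SE 0.25, adjusted p = 0.0273). Each fibroblast array was below the lowest keratocyte array, which was keratocyte replicate 2 in all 3 genes, and fibroblast replicate 3 was the highest of its group for Msmo1 and Sqle. Of 18 genes of the list these 3 fell and none rose, and in 11 all fibroblast arrays lay below all keratocyte arrays, next to 1.28% and 10.4% of all genes. Cyp51 (136, 118 and 164 against 312, 289.7 and 302) and Hmgcs1 (294, 232 and 304 against 656, 564 and 619.9), further enzymes of the pathway, had groups apart in the same way and did not pass (adjusted p = 0.0551 and 0.122). With only the 6 arrays in the fit the adjusted p of Cyp51 was 0.0495. The median difference of the list was -0.47, -0.55 without fibroblast replicate 3 and -0.48 without keratocyte replicate 2. Idi1 and Msmo1 lost their call without fibroblast replicate 3 (adjusted p = 0.0645 and 0.0576), and Sqle did so without keratocyte replicate 2 (0.0528).

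The bases before the start of transcription are shown for Idi1 and Msmo1, called sterol genes with an entry in the table of promoters, because they fell together. They are the last 180 bases before the annotated start, from RefSeq on build GRCm38.p6, written 5′ to 3′ on the strand of the gene. Capitals mark CCAAT, the box bound by the factor NF-Y, on either strand (ATTGG when read from the other strand), and TTTGAA on either strand (TTCAAA), a core element of genes used late in the cell cycle.
Idi1, chr13:8885426-8885605, plus strand: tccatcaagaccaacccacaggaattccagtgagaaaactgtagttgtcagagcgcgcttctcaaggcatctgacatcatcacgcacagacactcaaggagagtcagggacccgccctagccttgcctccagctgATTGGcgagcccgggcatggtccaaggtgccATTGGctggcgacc
Msmo1, chr8:64733579-64733758, minus strand: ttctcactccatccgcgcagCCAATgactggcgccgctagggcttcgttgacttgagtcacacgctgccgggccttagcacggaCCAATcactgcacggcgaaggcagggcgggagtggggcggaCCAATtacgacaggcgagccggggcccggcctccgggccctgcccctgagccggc
Idi1 holds 2 CCAAT boxes and Msmo1 holds 3 in this window, and neither holds TTTGAA. Over the 250 bases before the start, CCAAT was found in 14 of the 15 list members with an entry, against 34.5% of 27025 promoters. TTTGAA was found in none of the 15, against 16.3% of all promoters. A match is a run of letters and does not show that a factor binds there.

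Other genes of lipid and sugar use fell as well. Apoe, the apolipoprotein that carries cholesterol between cells, had the largest difference of any called gene with both group means above background, -3.86 (SE 0.85, adjusted p = 0.0384). It was at 492, 465 and 29.2 in fibroblast and 3512, 2790.3 and 3413 in keratocyte culture, so that fibroblast replicate 3 was far below the other fibroblast arrays, which were themselves far below all keratocyte arrays. Without fibroblast replicate 3 the difference was -2.71 and the adjusted p 0.103, and without keratocyte replicate 2 the adjusted p was 0.0932. Plin2, which coats lipid droplets, was at 546, 343 and 540.4 against 1428, 1703 and 1579.9 (difference -1.71, SE 0.21, adjusted p = 0.00189). Angptl4, a secreted inhibitor of lipoprotein lipase, was at 167, 166 and 352 against 1153, 913 and 1204 (difference -2.25, SE 0.28, adjusted p = 0.00189), and here fibroblast replicate 3 lay nearest to the keratocyte arrays. A dimmer probe set for Angptl4, within background, showed no gap (means 59.3 and 62.3).

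Among glycolysis and hypoxia genes 4 of 25 fell and none rose, next to 1.28% of all genes that fell, with a median difference of -0.28. Aldoc, an aldolase, had the smallest adjusted p of all genes, 4.82e-05, and was at 79.2, 102 and 73.8 in fibroblast and 346, 362 and 377 in keratocyte culture. Pfkl and Pfkp, subunits of phosphofructokinase, the rate-setting enzyme of glycolysis, fell from 570.04, 641 and 645 to 326, 330.3 and 312 and from 208, 185 and 245 to 119, 82.5 and 71.1 (adjusted p = 0.0274 and 0.0201). Ndrg1, induced by low oxygen, fell from 417, 338 and 371 to 149, 207 and 96.2 (adjusted p = 0.016). Of these 4 calls only that of Aldoc held without fibroblast replicate 3 or with only the 6 arrays in the fit. Without fibroblast replicate 3 the adjusted p was 0.0903 for Pfkl, 0.0873 for Pfkp and 0.0514 for Ndrg1. The abundant enzymes Pkm (3357, 3297 and 3581 against 3120.2, 3519.6 and 3436) and Ldha (3056, 2608 and 2649 against 2954, 3794 and 3383) overlapped between the groups. Hk2, a hexokinase, was listed at 1 on all 3 keratocyte arrays and at 81.0, 1 and 482 on the fibroblast arrays, so that only fibroblast replicate 3 was above background.

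The metallothioneins Mt1 and Mt2, which bind zinc and copper, fell by 1.86 and 1.75 on the log2 scale (adjusted p = 0.0276 and 0.018). Both lost their call without fibroblast replicate 3 (0.115 and 0.0696) and without keratocyte replicate 2 (0.0964 and 0.0579). Mt2 was at 1601, 1109.7 and 622 in fibroblast and 3204, 3834 and 3549.8 in keratocyte culture, lowest on fibroblast replicate 3 and highest on keratocyte replicate 2. Cdkn1a, the inhibitor p21 that stops the cell cycle, was at 301, 216 and 213 against 802, 676 and 730.4 (difference -1.55, SE 0.21, adjusted p = 0.00189), with tight groups far apart. A second probe set for Cdkn1a was lower by less and did not pass (means 205 and 329, adjusted p = 0.143). Ptgds, the prostaglandin D synthase that adult keratocytes make, was at 349.7, 407 and 181 against 1147, 1062 and 1211 (difference -1.89, SE 0.30, adjusted p = 0.00704). Both other probe sets for Ptgds were lower too and did not pass (adjusted p = 0.107 for each), although one of them had the higher keratocyte mean, 1272. Pla2g7, which degrades platelet-activating factor, was at 74.6, 22.2 and 37.3 against 296, 174 and 277 (adjusted p = 0.00189).

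Matrix genes fell in part. Col4a1, the type IV collagen of basement membranes, was at 1453, 1153 and 946 in fibroblast and 2311, 2132 and 2365 in keratocyte culture (difference -0.95, SE 0.17, adjusted p = 0.0137). Agrn, a heparan sulfate proteoglycan, was at 207, 162 and 127 against 397, 299 and 422 (difference -1.11, SE 0.22, adjusted p = 0.0209), and Col15a1 was within background in fibroblast culture, at 66.2, 67.1 and 27.8 against 209, 115 and 168 (adjusted p = 0.0384). These were 3 of 18 basement membrane genes, next to 1.28% of all genes that fell, and all 3 lost their call without fibroblast replicate 3. A second probe set for Agrn, also above background, had nearly equal means and did not pass (198 and 192, adjusted p = 0.971). Sparcl1 and Matn2, secreted proteins of the matrix, fell from 589, 306 and 479.7 to 114, 101 and 132 and from 265, 215 and 278 to 72.2, 79.0 and 46.7 (adjusted p = 0.00704 and 0.00189). Both kept their call without fibroblast replicate 3 and without keratocyte replicate 2. None of 8 small leucine-rich proteoglycans, the family of corneal lumican and decorin, passed, and none had groups apart. In a list this small that is near the shares of all genes, 1.28% that fell and 0.156% that rose. Of 15 fibrillar and associated collagens Col8a1 alone passed, and it rose, next to 0.156% of all genes that rose. Col3a1, of type III collagen, and Col18a1, which holds endostatin, did not pass at their brightest probe set (adjusted p = 0.148 and 0.131). A dimmer probe set passed for Col18a1 (means 247 and 685, adjusted p = 0.0131), and 2 did for Col3a1, of which one had means of 52.7 and 198 (adjusted p = 0.0171).

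Signalling genes and transcription factors completed the falls. Vegfc, the growth factor of lymph vessels, was at 175, 53.1 and 144 against 478, 257 and 392 (adjusted p = 0.0473). Tgfb2, a TGF-beta, was within background in fibroblast culture at 64.8, 42.5 and 30.7 against 161, 123 and 164 (adjusted p = 0.0171). Tsc22d1, a gene that TGF-beta induces, fell from 1667, 1659 and 1977 to 1049.5, 844 and 573 (difference -1.13, adjusted p = 0.0171). Tgfb2 and Tsc22d1 were 2 of 21 TGF-beta responsive genes, next to 1.28% of all genes that fell. Vegfc, Tgfb2 and Tsc22d1 lost their call without fibroblast replicate 3 (adjusted p = 0.0829, 0.0746 and 0.0583). With only the 6 arrays in the fit they lost it too (0.208, 0.0518 and 0.118). Nr2f1, a nuclear receptor of the developing eye, was at 61.8, 60.9 and 4.88 against 467, 257 and 387 (adjusted p = 0.00317). Zic1, a zinc finger factor of neural crest and brain, was at 87.8, 87.0 and 3.08 against 476, 312 and 427 (adjusted p = 0.0184), and Reln, a secreted guide of migrating neurons, at 33.2, 24.6 and 1 against 250.4, 166 and 259 (adjusted p = 0.00704). The pattern was the same in all 3: high in keratocyte culture, within background on fibroblast replicates 1 and 2 and near the floor on replicate 3. All 3 kept their call without fibroblast replicate 3 (adjusted p = 0.0028, 0.0233 and 0.0246), though with only the 6 arrays Reln alone did (0.0342). In myofibroblast culture they were within background too, Zic1 at 23.9, 39.7 and 3.29, Reln at 1, 6.04 and 1 and Nr2f1 at 23.0, 22.8 and 15.3. Of the 123 probe sets that fell, 81 had a fibroblast mean within background, and 90 had a keratocyte mean above it.

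Rises were fewer, and few of them kept their call without fibroblast replicate 3 or without keratocyte replicate 2. Penk, the precursor of enkephalin peptides, was at 1839, 1315 and 1343 in fibroblast and 477, 523 and 560.01 in keratocyte culture (difference 1.48, SE 0.19, adjusted p = 0.00189). Every fibroblast array was far above every keratocyte array, and the call held without fibroblast replicate 3 (0.00705), without keratocyte replicate 2 (0.00777) and without both (0.0167). Thbs2, a thrombospondin of the matrix, was at 2514, 1822 and 3644 against 1018, 504 and 762 (difference 1.78, SE 0.30, adjusted p = 0.0103). Fibroblast replicate 3 was its highest and keratocyte replicate 2 its lowest array, and its adjusted p was 0.0439 without the first, 0.0379 without the other and 0.0877 without both. Shox2, a homeobox factor of the developing limb, was at 838, 579 and 1439 against 417, 151 and 335, and Mest, an imprinted gene of growing mesenchyme, at 381, 518 and 1344 against 241, 150.2 and 229.9 (differences 1.62 and 1.59, adjusted p = 0.0317 and 0.0321). In both genes fibroblast replicate 3 was well above the other arrays of its group, and the adjusted p without it was 0.127 and 0.0557. Tnfrsf11b, the decoy receptor osteoprotegerin, was at 1722, 1138 and 1674 against 773, 635 and 728 (difference 1.05, SE 0.22, adjusted p = 0.0322). Apcdd1, an inhibitor of Wnt signals, was at 289, 292 and 398 against 187, 112 and 143 (difference 1.08, adjusted p = 0.0165). Col8a1, a short-chain collagen known from Descemet's membrane, was at 3018, 3159.9 and 4776 against 2044, 1612 and 1959 (difference 0.93, SE 0.21, adjusted p = 0.0384), with fibroblast replicate 3 again highest. These 3 lost their call without fibroblast replicate 3 (0.129, 0.0725 and 0.162). Elp5, a subunit of an RNA-modifying complex, passed with 155, 112 and 590.03 against 46.9, 1 and 1 (adjusted p = 0.0402), where only fibroblast replicate 3 was far above background. In myofibroblast culture, which had the same serum with TGF-beta1, Penk was at 493, 423 and 418 and Mest at 28.1, 17.8 and 27.2, and Tnfrsf11b at 2578, 1533 and 2771.

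Genes of mitosis were mostly higher in fibroblast culture, with few calls. Ccnb2, a cyclin of mitosis, was at 262, 379 and 674 in fibroblast and 153, 141 and 167 in keratocyte culture (difference 1.32, SE 0.29, adjusted p = 0.0384). Kif20a, a kinesin of the dividing spindle, was at 176, 236 and 478 against 111, 82.4 and 98.2 (adjusted p = 0.0468), and Kif2c, which takes spindle microtubules apart, at 129.7, 179.8 and 218 against 85.9, 74.8 and 89.5 (adjusted p = 0.0233). All fibroblast arrays lay above all keratocyte arrays in each, and fibroblast replicate 3 was the highest. Of 43 mitosis and G2 genes tested these 3 rose and none fell, next to 0.156% of all genes that rose. In 20 all fibroblast arrays lay above all keratocyte arrays, against 4.5% of all genes, and in none did they lie below. Aurka, a mitotic kinase (112, 129 and 121 against 75.5, 61.4 and 79.1), and Prc1, which bundles the spindle midzone (341, 319 and 246 against 162, 149 and 165), had groups apart with adjusted p = 0.0656 and 0.0778. Birc5, of the chromosomal passenger complex, was at 386, 374 and 319 against 193, 187 and 248 (adjusted p = 0.111), and Mki67, the marker of dividing cells, at 386, 337 and 374 against 209, 170.4 and 235 (adjusted p = 0.232). In these 4 genes fibroblast replicate 3 was within the range of the other fibroblast arrays or below it. The median difference of the list was 0.35, 0.43 without fibroblast replicate 3 and 0.27 without keratocyte replicate 2. None of the 3 calls held without fibroblast replicate 3 and none without keratocyte replicate 2, where the adjusted p of Ccnb2 was 0.137 and 0.122.

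Genes of DNA replication showed no such shift. Of 40 S phase genes none passed, next to 0.156% of all genes that rose and 1.28% that fell, and none had groups apart. Their median difference was -0.09, 0.19 without fibroblast replicate 3 and 0.02 after quantile normalization, so that its sign depends on that array and on the scaling. The median of log2(signal + 16) over the S phase genes was 8.21, 7.81 and 7.10 on the fibroblast arrays and 7.74, 7.69 and 7.84 on the keratocyte arrays, with fibroblast replicate 3 the lowest of all. For the mitosis genes the same median was 8.41, 8.29 and 8.14 and 7.84, 7.53 and 7.85, with every fibroblast array above every keratocyte array. Ccnd1, the cyclin that serum induces in early G1, was at 774, 341 and 191 against 470.3, 472 and 555 (adjusted p = 0.837), spread more widely within fibroblast culture than between the groups.

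The same stretch before the start is shown for Ccnb2 and Kif2c, called members that rose together. The letters in capitals are those defined for the sterol genes.
Ccnb2, chr9:70421555-70421734, minus strand: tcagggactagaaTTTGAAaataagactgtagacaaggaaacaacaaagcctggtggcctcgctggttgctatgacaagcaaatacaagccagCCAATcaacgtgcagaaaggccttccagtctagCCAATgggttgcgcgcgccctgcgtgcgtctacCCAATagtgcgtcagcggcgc
Kif2c, chr4:117178773-117178952, minus strand: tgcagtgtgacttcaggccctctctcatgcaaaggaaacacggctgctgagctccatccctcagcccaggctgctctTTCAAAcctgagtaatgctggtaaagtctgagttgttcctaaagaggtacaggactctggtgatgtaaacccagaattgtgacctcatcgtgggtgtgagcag
Ccnb2 holds 3 CCAAT boxes and 1 TTTGAA, and Kif2c holds 1 TTTGAA and no CCAAT. Over 250 bases, CCAAT was found in 26 and TTTGAA in 16 of the 33 mitosis and G2 genes with an entry, next to the shares of all promoters given for the sterol genes.

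**Figure D2:**
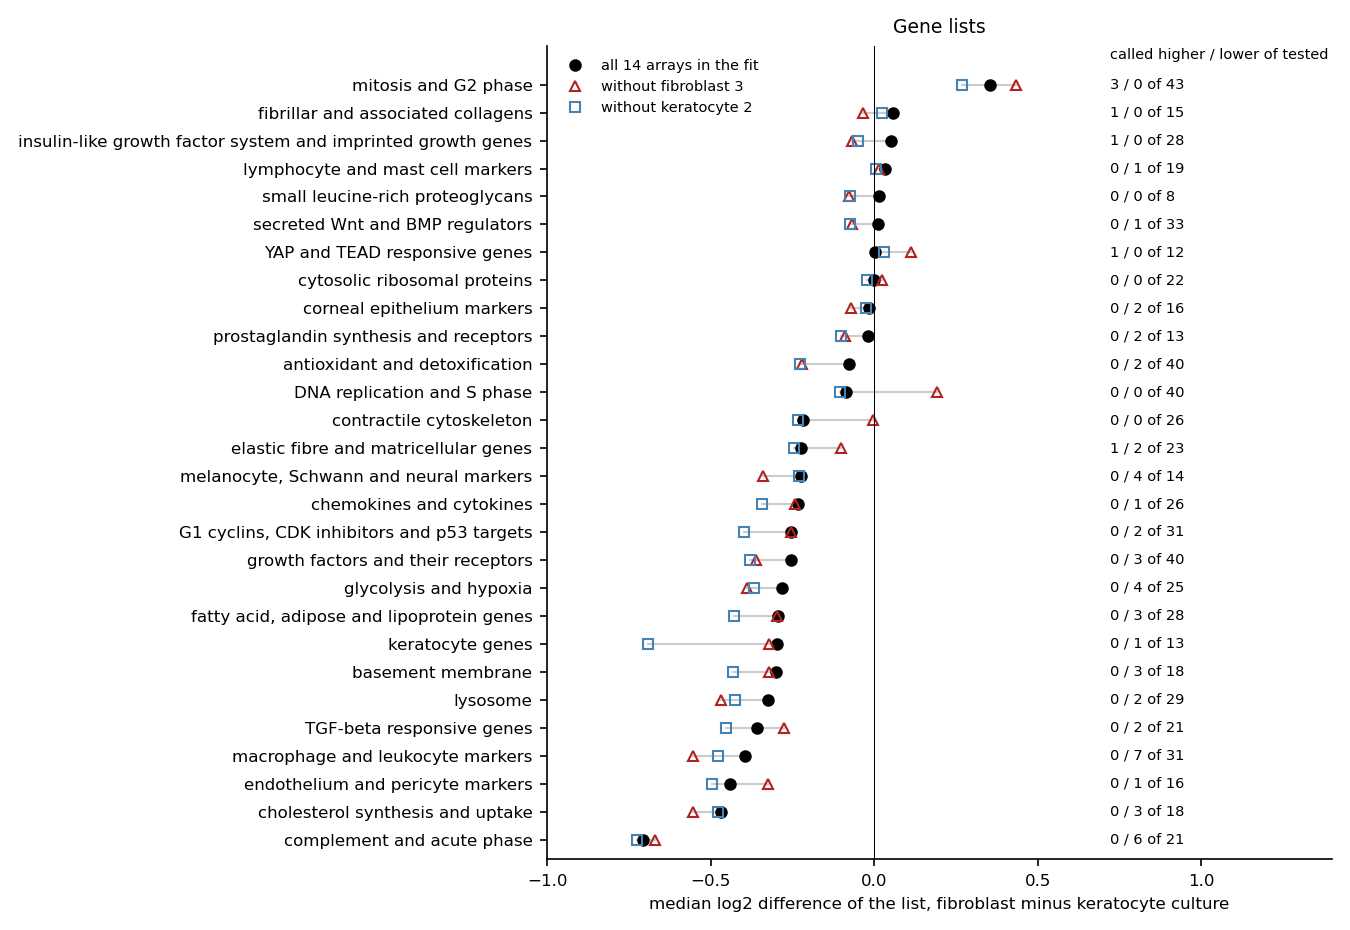
Median log2 difference (fibroblast minus keratocyte culture) of the 24 gene lists with a called member and of 4 without one, with all arrays (black), without fibroblast replicate 3 (red) and without keratocyte replicate 2 (blue), and the number of members called higher and lower of those tested. Complement and acute phase genes were lowest and mitosis genes highest in all 3, while keratocyte genes moved most without keratocyte replicate 2 and S phase genes most without fibroblast replicate 3.

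Few of the genes that define keratocytes passed the test. Of 13 keratocyte genes Ptgds alone passed, at 1 of its 3 probe sets, next to 1.28% of all genes that fell. Aldh3a1, an aldehyde dehydrogenase that the cornea holds as a crystallin, was at 751, 222 and 3721 in fibroblast and 3778, 125 and 2327 in keratocyte culture (adjusted p = 0.962). Fibroblast replicate 3 was thus as high as keratocyte replicate 1, and keratocyte replicate 2 was the lowest of the 6 arrays. Kera, the keratan sulfate proteoglycan keratocan, was at 48.3, 1.50 and 84.3 against 315, 15.7 and 164 (adjusted p = 0.642), again with keratocyte replicate 2 among the low arrays. Without keratocyte replicate 2 the adjusted p was 0.0758, and without both odd arrays 0.0248. Tkt, transketolase, was at 625, 477 and 488 against 1531, 635 and 1021, with groups apart and an adjusted p of 0.0924, 0.00822 without keratocyte replicate 2. Lum, lumican, was at 2513, 1643 and 2631 against 3254, 1122 and 2553, and Dcn, decorin, at 5108, 4713 and 5587 against 5419, 4806 and 5630.1 (adjusted p = 0.969 and 0.945). The median difference of the keratocyte list was -0.30, -0.32 without fibroblast replicate 3, -0.69 without keratocyte replicate 2 and -0.50 without both. The summed signal of 9 defining keratocyte markers ran from 8358 to 17285 over the fibroblast and from 8932 to 19718 over the keratocyte arrays.

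Acta2, the smooth muscle actin of myofibroblasts, was at 2544, 2954 and 638 in fibroblast and 3066, 3167 and 3347 in keratocyte culture, so that it was high on every array of both cultures except fibroblast replicate 3. Tagln, transgelin, had the same pattern, at 2157, 2822 and 428 against 2989.99, 3799 and 3793. Neither passed (adjusted p = 0.565 and 0.333), and without fibroblast replicate 3 the differences shrank from -0.91 to -0.22 and from -1.33 to -0.50. Ccn2, a growth factor of scars, was at 3248, 2423 and 1204 against 3828, 3529.7 and 3832 (adjusted p = 0.542). None of 26 contractile genes passed in either direction, which is near the shares of all genes, 1.28% that fell and 0.156% that rose. The median difference of that list was -0.22, and -0.003 without fibroblast replicate 3. Among genes of fibroblasts, Col1a1, of type I collagen, was at 6745, 5392 and 6538 against 5122, 4671 and 4818 and Fn1, of fibronectin, at 5252, 4648 and 5446 against 4219, 4225 and 4629. Vim, of vimentin, was at 186, 258 and 193 against 223, 294 and 166, with overlapping arrays. Col1a1 and Fn1 had groups apart and did not pass (adjusted p = 0.207 and 0.747).

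**Figure D3:**
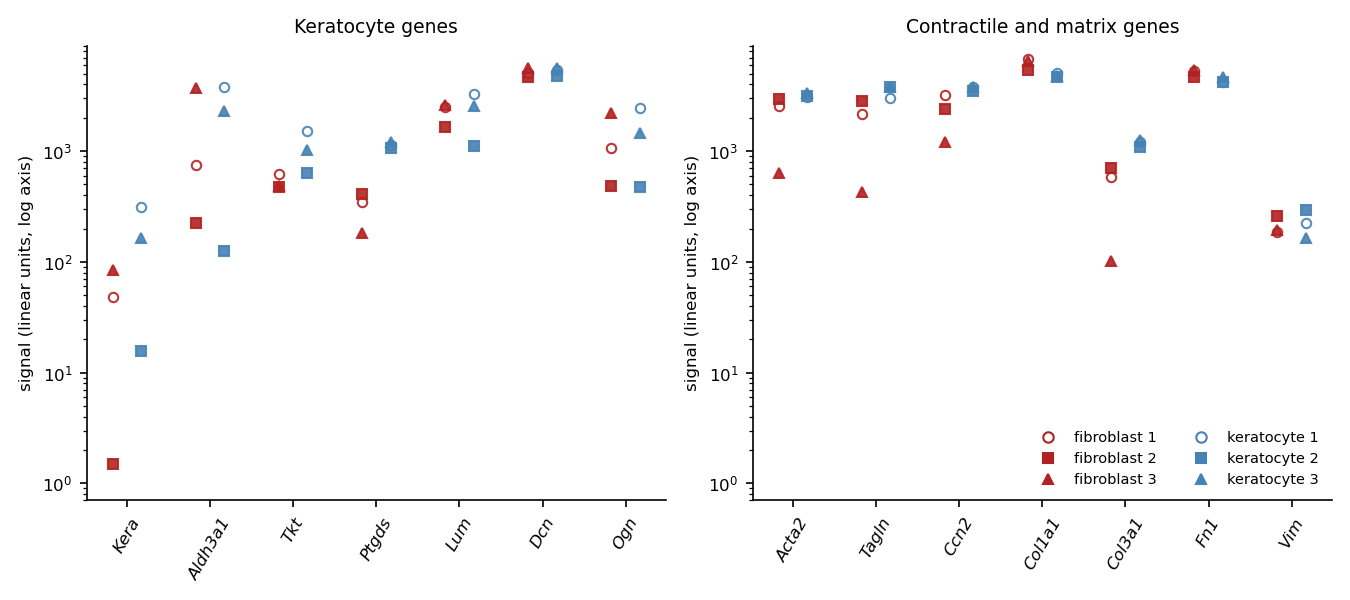
Signal (log axis) of 7 keratocyte genes and 7 contractile and matrix genes on each array, red for fibroblast and blue for keratocyte culture, with shapes for the replicates. Keratocyte replicate 2 (blue squares) lay with or below the fibroblast arrays for Kera and Aldh3a1, and fibroblast replicate 3 (red triangles) lay below all other arrays for Acta2, Tagln and Col3a1.

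Fibroblast replicate 3 departed from its group in both directions. Over all tested probe sets it was above both other fibroblast arrays by 1 or more on the log2 scale in 81 and below both in 123. For fibroblast replicate 1 these counts were 69 and 10, and for replicate 2 they were 26 and 230, so that it was not the only array to stand apart. The genes named here were chosen for the size of its gap, and their values are a description. Far above lay Aldh3a1 as given, Cyp2f2, a cytochrome P450, at 349.9, 235 and 1648, and Adh1, an alcohol dehydrogenase, at 293, 159 and 1171. Over the 40 antioxidant and detoxification genes tested the median of log2(signal + 16) on the fibroblast arrays was 8.52, 8.08 and 8.20, with no rise on replicate 3. H1f2, a linker histone, was at 116, 191 and 1430.1 and Phyh, an enzyme of peroxisomes, at 95.3, 139 and 575. Ddit3, a factor of the stress response, was at 136, 134 and 490.1, and Car3, a carbonic anhydrase, at 52.7, 21.7 and 206. In the other direction lay Acta2 and Tagln as given, Col3a1 at 589.6, 704 and 102, Col18a1 at 344, 432 and 78.8 and Nes, the filament nestin, at 675, 445 and 116. Gsta4, a glutathione transferase, was at 265, 244 and 21.4 and Dkk3, a secreted Wnt regulator, at 210.5, 341 and 34.8. Myofibroblast replicate 3 had the low value of some of these and not of others: Apoe was at 120.3, 189.97 and 6.38 and Gsta4 at 12.4, 38.1 and 1 in myofibroblast culture, whereas Acta2 was at 3061, 2954 and 2932 and Col3a1 at 1035, 1085 and 756. The deviations of fibroblast replicate 3 from its group mean correlated across probe sets with those of myofibroblast replicate 3 (0.545) and less with those of keratocyte replicates 1 and 3 (0.333 and 0.0673).

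Keratocyte replicate 2 departed mostly downwards, by 1 or more below both other keratocyte arrays in 57 probe sets and above them in 3. Its median signal was the lowest of its group, 118 against 136 and 132 on keratocyte replicates 1 and 3. The medians of fibroblast replicate 2 (107) and myofibroblast replicate 2 (102) were also the lowest of their groups. These arrays too departed mostly downwards, with 230 below and 26 above and with 239 below and 31 above. The part of signal level in these departures was not tested. Aldh3a1, given above, was within background on keratocyte replicate 2 alone of the 6 arrays. Agtr2, an angiotensin receptor, was at 554, 33.8 and 249 in keratocyte culture and Srpx, a secreted sushi-repeat protein, at 558, 51.7 and 282. Alcam, an adhesion molecule, was at 454, 55.4 and 267, Matn4, a matrilin, at 517, 57.3 and 255 and Abca1, the cholesterol exporter, at 463, 84.4 and 238. Ogn, the proteoglycan osteoglycin, was at 2478, 474 and 1447 and Apod, a lipocalin, at 5054, 1198 and 3829.97. Keratocyte replicates 1 and 3 were far above background in all of these, and replicate 2 was within it for the first 5. In fibroblast culture Matn4 was at 116, 59.4 and 217 and Abca1 at 355, 75.1 and 439, each lowest on replicate 2. Agtr2 was at 118, 116 and 327, low on fibroblast replicates 1 and 2 alike. Srpx, at 149 on fibroblast replicate 2, was above background there. The widest gaps above were smaller, as in Sox10 (224, 799 and 397) and Pbx3, a homeobox factor (287, 607 and 301). The deviations of keratocyte replicate 2 from its group mean correlated across probe sets with those of fibroblast replicate 2 (0.586) and myofibroblast replicate 2 (0.424).

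**Figure D4:**
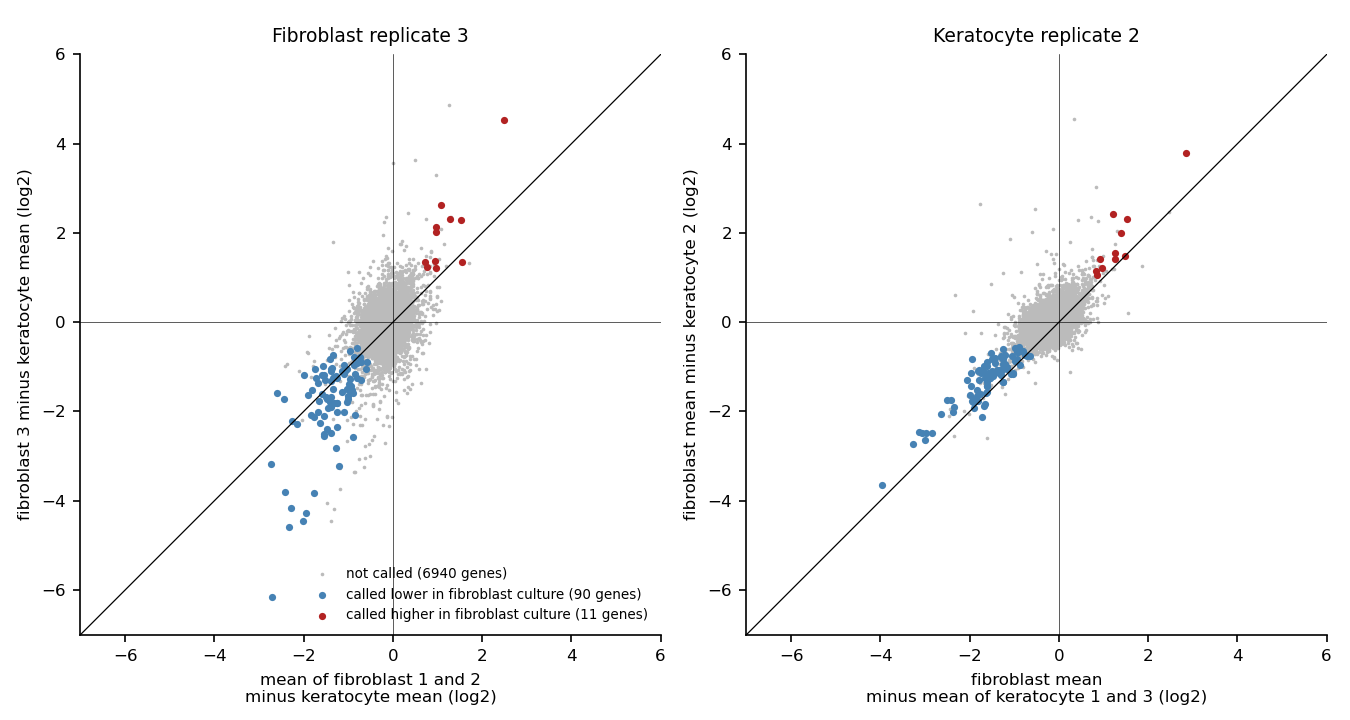
Left: log2 difference of fibroblast replicate 3 from the keratocyte mean against that of fibroblast replicates 1 and 2. Right: fibroblast mean minus keratocyte replicate 2 against fibroblast mean minus keratocyte replicates 1 and 3. Each point is 1 of 7041 genes, with the 90 called lower in blue and the 11 called higher in red, and the diagonal marks equal differences. Falls with fibroblast replicate 3 near the floor, such as Tyrp1 and Cdh5, lie below the diagonal on the left, Angptl4, Ctss and Saa2 lie above it, and most blue points lie above it on the right, where keratocyte replicate 2 showed the smaller gap.

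In the genes that fell, fibroblast replicate 3 lay on the far side of its group and keratocyte replicate 2 on the near side, and in those that rose both lay on the far side. Among the 123 probe sets that fell, fibroblast replicate 3 was the lowest fibroblast array in 67 and keratocyte replicate 2 the keratocyte array nearest to fibroblast culture in 103. Among the 20 that rose, fibroblast replicate 3 was highest in 15 and keratocyte replicate 2 was the lowest keratocyte array in 17. Fibroblast replicate 3 was 1 or more on the log2 scale below both other fibroblast arrays in 17 of the 123, and under a signal of 10 in 15.

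Without fibroblast replicate 3, 57 probe sets passed (0.591%), of which 54 were among the 143, with 4 higher and 53 lower. Without keratocyte replicate 2, 101 passed (1.05%), 94 of them among the 143, with 5 higher and 96 lower. Without both, 67 passed (0.694%), 55 of them among the 143, with 3 higher and 64 lower. Few rises kept their call. Of the 11 genes that rose 2 kept their call without fibroblast replicate 3, 2 without keratocyte replicate 2 and 1 without both, against 36, 64 and 36 of the 90 that fell. The sizes moved little. Over the 143 called probe sets the median ratio of the difference to its value with all arrays was 0.92 without fibroblast replicate 3, 1.06 without keratocyte replicate 2 and 0.98 without both. Their signs could not change when arrays were left out, because the groups lay apart in all 143.

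Leaving out keratocyte replicate 1 or 3 cost more calls still. Without keratocyte replicate 1 only 32 probe sets passed (0.332%) and without keratocyte replicate 3 only 21 (0.218%), while 146 passed without fibroblast replicate 1 (1.51%) and 122 without fibroblast replicate 2 (1.26%). Of the 11 genes that rose, 5 kept their call without keratocyte replicate 1 and 1 without keratocyte replicate 3. Of the 90 that fell, 18 and 13 did. Whether rises or falls kept more of their calls thus depended on the array left out. With only the 6 arrays in the fit 44 passed (0.456%), 39 of them among the 143, and their genes included Lcn2, Saa3, Saa2, Pmel, Dct, Angptl4, Aldoc, Penk, Idi1 and Msmo1. Nearest to the threshold among genes, Pag1, Crabp2 and Crybg1 were just inside (adjusted p = 0.0484, 0.0485 and 0.0479), and Hsd17b11, Krtap6-3 and Cyp51 just outside (0.0518, 0.0525 and 0.0551).

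**Figure D5:**
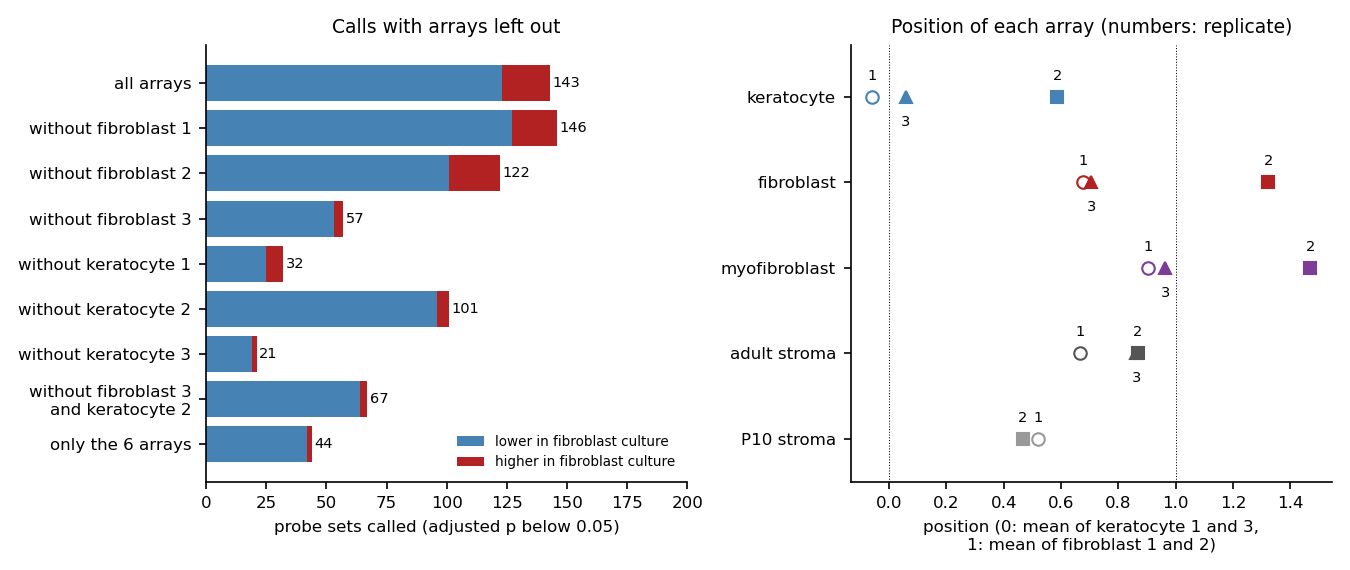
Left: number of probe sets called lower (blue) and higher (red) with all arrays, with arrays left out, and with only the 6 arrays in the fit. Right: position of each of the 14 arrays by group, where 0 is the mean of keratocyte replicates 1 and 3 and 1 that of fibroblast replicates 1 and 2. The count fell to 57 without fibroblast replicate 3 and to 21 without keratocyte replicate 3. Keratocyte replicate 2, which did not set the line, lay at 0.586.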

How the data were processed

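The deposited values are linear signal intensity of Affymetrix MG_U74Av2 probe sets, computed by the authors with Microarray Suite 5.0 and scaled to a target of 150, per the labels. Over the 6 arrays the mean with 2% trimmed at each end ran from 173 to 225, above the stated target. The intensity was taken as deposited, 16 was added and log2 taken. limma 3.58.1 in R 4.3.3 was fitted to all 14 arrays in 5 groups with a variance trend, and Benjamini-Hochberg adjustment ran over the 9649 probe sets with a mean of 50 or more in either group. Of 12422 probe sets, 10833 had 1 gene symbol, 396 several and 1193 none in the platform annotation.

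The members and the 42 gene lists were chosen with earlier results of these data known. Named genes were the largest called changes with a higher mean of 200 or more, up to 5 called members per list, 15 set genes, the 10 widest gaps of fibroblast replicate 3 and keratocyte replicate 2 each way, and 3 genes on each side of the threshold. Fixed cell markers were named too, while Aurka, Birc5, Prc1, Mki67, Cp, Mpeg1, Hmgcs1, Pkm, Ldha, Emcn, Sox18, Cd93 and Erbb3 were added after their values were seen. The fit was tested on simulated data. Alternatives changed the constant, filter, scaling, arrays, block, variance model, covariate, weights and thresholds.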

Additional observations from a re-analysis of the deposited data

How the results depend on the processing

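What moved between the alternatives was the number that passed. All 143 called probe sets kept their sign with quantile normalization, centring and the Gapdh ratio as covariate. In the other alternatives the sign could not turn, because the groups lay apart in all 143. With 1 added in place of 16, 71 passed (9 higher, 62 lower). With only the 6 arrays 44 passed (2 and 42), with the 9 culture arrays 85 (9 and 76), and with array weights 345 (54 and 291). Without both fibroblast replicate 3 and keratocyte replicate 2, 67 passed (3 and 64). At an adjusted p below 0.01, 33 passed (3 and 30). Leaving out 1 array at a time gave 21 to 146 probe sets in all, 2 to 21 higher and 19 to 127 lower, fewest without keratocyte replicate 3. Quantile normalization and centring each gave 37 higher. With the replicate block, 213 passed over 14 arrays (31 higher, 182 lower) and 129 over 6 arrays (20 and 109). Same-numbered fibroblast and keratocyte arrays deviated together with correlations of 0.195, 0.586 and 0.0673, not all above 0.1. Among keratocyte arrays fibroblast replicate 3 correlated best with replicate 1 (0.333), so the numbers were not taken as pairs in the main fit. Same-numbered fibroblast and myofibroblast arrays did deviate together, at 0.629, 0.702 and 0.545, and those of unlike number had negative correlations. The main fit leaves out what arrays of the same number may share. Counts stayed within 1.5 times of the reported ones with 64 added, no filter, a filter at 100, a flat or robust variance trend, the Gapdh ratio as covariate and a log2 difference of 1 or more. Over scalings, constants and the filter at 100, fibroblast replicate 3 lay between 0.698 and 0.739 and keratocyte replicate 2 between 0.486 and 0.612. Quantile normalization turned the sign of the small list medians of S phase (-0.09 to 0.02), corneal epithelium (-0.02 to 0.08), antioxidant (-0.08 to 0.01), prostaglandin (-0.02 to 0.08), serum response factor (-0.11 to 0.000197), hyaluronan (-0.02 to 0.07), lens, retina and muscle (-0.05 to 0.05) and S100 and annexin genes (-0.09 to 0.02). The cause of these shifts was not tested. Having 3 arrays per group limits the precision, and 81 of the 123 falls end in a fibroblast mean within background.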

Other observations

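Among other genes that fell, a few are given here with their values. Ccl9, a chemokine of the myeloid lineage, was at 233, 95.5 and 274 in fibroblast and 639.8, 593 and 703 in keratocyte culture, lowest on fibroblast replicate 2 (difference -1.72, SE 0.35, adjusted p = 0.0274). Ctsc, a lysosomal peptidase, was at 223, 181 and 112 against 512, 442 and 566, lowest on fibroblast replicate 3 (difference -1.51, SE 0.31, adjusted p = 0.0269), and a dimmer probe set for it did not pass. Fabp4, the fatty acid carrier of adipose cells and macrophages, passed with signals within background in both groups (33.1, 29.0 and 35.2 against 97.3, 64.8 and 93.5, adjusted p = 0.0325). Inhbb, which encodes an activin subunit, did the same at 35.1, 30.5 and 6.89 against 114, 76.5 and 115 (adjusted p = 0.0384). Nr2f2, a nuclear receptor of vein and mesenchyme chosen here after its values were seen, was at 155, 67.1 and 67.5 against 381, 208 and 319, with all fibroblast arrays below all keratocyte arrays (adjusted p = 0.0286). Crabp2, a carrier of retinoic acid, fell within background from 121, 100.3 and 132 to 49.3, 62.4 and 6.37 (adjusted p = 0.0485), while on the myofibroblast arrays it was at 373, 381 and 386.

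On the line between the cultures, where 0 is the mean of keratocyte replicates 1 and 3 and 1 that of fibroblast replicates 1 and 2, the myofibroblast arrays lay at 0.905, 1.47 and 0.963. The adult stroma arrays lay at 0.665, 0.867 and 0.862, and the arrays of stroma at postnatal day 10 at 0.52 and 0.466. A position on the line leaves out how far an array lies off it. It therefore does not show which culture the stroma resembles more. No member passed in 18 of the 42 gene lists, next to 1.28% of all genes that fell and 0.156% that rose. Among them were the small leucine-rich proteoglycans, heat shock genes, interferon responsive genes, cytosolic ribosomal proteins and the respiratory chain.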
